A study of Mus musculus with 11 samples.

Results

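The imprinted growth domain on distal mouse chromosome 7 was followed through 8 genes, H19, Igf2, Ascl2, Kcnq1, Kcnq1ot1, Cdkn1c, Slc22a18 and Phlda2, which were found by symbol among the 25802 genes measured. Their rows comprised 8 gene bodies, 5 of 24391 promoters (H19, Ascl2, Cdkn1c, Slc22a18 and Phlda2), 7 of 14841 CpG islands and 49 of 259716 tiles. No promoter row was found under the symbols Igf2, Kcnq1 and Kcnq1ot1. Islands and tiles were members if they overlapped any of the 8 genes or its promoter. A promoter covered the 1500 bp before a gene's start and the first 500 bp after it, a gene body was the whole gene from start to end, and a tile was 5000 bp of genome. The samples were pancreata of 11 wild type C57BL/6N mice at postnatal day 0. Dams of 5 mice (3 females and 2 males) were injected with amphetamine at 10 mg/kg on embryonic days 14.5, 15.5 and 16.5, and dams of 6 controls (3 females and 3 males) received saline. The same mice were also compared as 6 females against 5 males. Whole pancreas mixes exocrine, endocrine and other cells, so that a change in methylation and a change in the share of a cell type cannot be told apart, and litters were not given. The strain is inbred, so that reads from the maternal and the paternal copy cannot be told apart either.

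Imprinted genes are expressed from a single parental copy, and the choice is set by control regions that carry methylation from only the sperm or only the oocyte. At H19 and Igf2 the control region lies upstream of H19 and is methylated on the paternal copy, where it lets Igf2, a fetal growth factor, be expressed, while H19, a long noncoding RNA, is made from the unmethylated maternal copy. The second control region lies at the start of Kcnq1ot1, inside Kcnq1, and is methylated on the maternal copy. The noncoding RNA Kcnq1ot1, made from the paternal copy, silences its neighbours there, among them Cdkn1c, an inhibitor of cyclin-dependent kinases that restrains growth. A region methylated on a single copy in every cell is read at an intermediate level when the copies are pooled.

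Sequences are shown for the regions on which the results turn, in the strand of the gene and with each CpG, the unit that carries methylation, in capitals. Reduced representation bisulfite sequencing (RRBS) reads start at the cut sites of MspI (CCGG) and TaqI (TCGA), so that CpGs within 50 bases of such a site were taken as within reach. The CpG island beside the start of Kcnq1ot1 (chromosome 7, 143295405 to 143295824, mm10, 420 bases) lies in an intron of Kcnq1 and in the transcribed part of Kcnq1ot1. It holds 41 CpGs, of which 23 are within reach. Its 300 bases with most CpGs hold 31 of them (chr7:143295490-143295789, minus strand).
Kcnq1ot1 island: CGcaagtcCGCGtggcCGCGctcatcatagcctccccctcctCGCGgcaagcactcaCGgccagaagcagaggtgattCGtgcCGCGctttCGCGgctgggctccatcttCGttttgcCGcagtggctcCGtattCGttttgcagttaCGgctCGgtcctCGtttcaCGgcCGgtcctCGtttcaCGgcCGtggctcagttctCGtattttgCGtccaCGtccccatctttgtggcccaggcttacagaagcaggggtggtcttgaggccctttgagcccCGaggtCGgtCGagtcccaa
By contrast, the RefSeq promoter of Kcnq1ot1 (chr7:143296498-143296797, GRCm38.p6, minus strand) holds 9 CpGs and neither cut site.
Kcnq1ot1 promoter: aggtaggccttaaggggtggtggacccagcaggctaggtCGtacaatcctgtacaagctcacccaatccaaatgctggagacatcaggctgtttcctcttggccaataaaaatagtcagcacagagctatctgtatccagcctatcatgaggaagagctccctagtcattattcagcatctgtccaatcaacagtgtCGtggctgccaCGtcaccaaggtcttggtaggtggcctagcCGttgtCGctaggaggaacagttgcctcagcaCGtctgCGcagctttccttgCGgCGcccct
The hexamer TGCCGC, which the imprinting factor ZFP57 binds when its CpG is methylated, occurs 3 times on both strands of the island. Of 3638 islands between 0.8 and 1.25 times as long, 40.7% hold the hexamer at all and 2.09% hold it as often.

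The tile just upstream of H19 (chr7:142580001-142585000, mm10), in which the annotation holds no gene, contains the H19 control region. It was searched for the core bound by CTCF, an insulator protein that occupies the unmethylated copy (14 letters, on both strands). The 4 matches lie 2.17 to 3.89 kb upstream of the H19 start, all on the strand of H19, and are shown because methylation of their CpGs is what keeps CTCF off. The core is in capitals with 5 flanking bases on each side, and the pattern searched is the letters that all 4 share, with any base allowed where they differ.
CTCF core 1: cgatgCCGCGTGGTGGCAGtacaa
CTCF core 2: tgctaCCGCGCGGTGGCAGcatac
CTCF core 3: ggttgCCGCACGGCGGCAGtgaag
CTCF core 4: agttgCCGCGTGGTGGCAGcaaaa
Of all tiles, 0.188% hold the core at least once. The pattern is known from this control region, so that its presence here is not a finding. The tile also holds the hexamer TGCCGC 6 times, and some of these overlap the cores shown. Of all tiles, 30.7% hold the hexamer at least once and 0.307% hold it 5 or more times. A match describes the letters and is not a measured binding site.

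At Igf2, a promoter inside the gene and the most distant annotated start are shown for their contrast in CpGs. The first (chr7:142658755-142659054, GRCm38.p6, minus strand) lies partly in the larger Igf2 island and holds 24 CpGs. The second (chr7:142666767-142667066, minus strand) holds 2 and neither cut site.
Igf2 inner promoter: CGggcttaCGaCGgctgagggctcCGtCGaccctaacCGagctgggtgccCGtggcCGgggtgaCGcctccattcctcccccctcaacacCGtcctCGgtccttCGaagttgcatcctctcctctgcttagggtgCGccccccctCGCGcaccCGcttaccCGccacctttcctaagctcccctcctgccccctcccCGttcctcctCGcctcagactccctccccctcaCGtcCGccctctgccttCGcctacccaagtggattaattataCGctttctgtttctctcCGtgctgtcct
Igf2 distant promoter: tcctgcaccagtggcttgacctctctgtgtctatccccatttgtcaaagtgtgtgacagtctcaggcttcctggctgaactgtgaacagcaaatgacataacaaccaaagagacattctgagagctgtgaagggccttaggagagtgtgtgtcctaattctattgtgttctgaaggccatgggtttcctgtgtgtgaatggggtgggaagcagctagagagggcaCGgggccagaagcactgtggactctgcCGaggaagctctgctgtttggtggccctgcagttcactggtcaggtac
The promoter of Phlda2 (chr7:143502475-143502774, minus strand), with 26 CpGs, stands for the unmethylated islands of the domain.
Phlda2 promoter: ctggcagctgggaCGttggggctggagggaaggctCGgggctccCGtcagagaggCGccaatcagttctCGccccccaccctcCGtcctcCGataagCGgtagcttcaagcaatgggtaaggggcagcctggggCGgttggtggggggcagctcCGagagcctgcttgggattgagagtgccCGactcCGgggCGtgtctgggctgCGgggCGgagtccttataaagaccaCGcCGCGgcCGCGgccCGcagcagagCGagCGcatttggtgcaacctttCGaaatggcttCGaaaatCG
RefSeq promoters cover 250 bases before to 50 after a start and matched 5 of the 8 genes, Ascl2, Igf2, Kcnq1ot1, Phlda2 and Slc22a18.

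Methylation is given as the mean of a group over its mice with reads, with the authors' SD, lowest and highest mouse, and coverage as the mean per mouse of the reads summed over a region. Values of single mice were not used here beyond these lowest and highest ones. Among the member promoters, gene bodies and islands, mean coverage ran from 6.83 at the Slc22a18 promoter in controls to 4013 at the Kcnq1 gene body in amphetamine-exposed mice. Summed over regions, coverage was higher after amphetamine than in controls, 1.24 times over all tiles and 1.31 times over the member tiles, although single regions such as the Cdkn1c promoter had less. The part of this in the differences was not tested. The sex labels were checked on the promoter of Kdm5d, a Y-linked gene, where coverage was 0 to 11 in the 6 females and 240 to 419 in the 5 males. Differences were tested across all regions of a class with a two-sided moderated test (limma) rebuilt from group means, SDs and numbers of mice, with Benjamini-Hochberg adjustment over the class, and called at an adjusted p under 0.05.

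The question asked of the 5 and 6 mice was whether methylation of the domain differed after prenatal amphetamine. The p-values measure the spread between these mice, some of which may share a litter. Of the 5 member promoters tested, 0 passed the adjusted threshold, against 0.0164% of all promoters, and 0 had an unadjusted p under 0.05, against 4.11%. The ranges of the groups were apart in 0 of the 4 with values in all mice, against 0.395%. Of the 8 member gene bodies tested, 0 passed the adjusted threshold, against 0.0116% of all gene bodies, and 1 had an unadjusted p under 0.05, against 4.38%. Group ranges were apart in 0 of the 8 with values in all mice, against 0.312%. Of the 7 member CpG islands tested, 0 passed the adjusted threshold, against 0.0135% of all CpG islands, and 0 had an unadjusted p under 0.05, against 4.1%. Ranges without overlap were seen in 0 of the 7 with values in all mice, against 0.443%. Of the 48 member tiles tested, 0 passed the adjusted threshold, against 0.0185% of all tiles, and 1 had an unadjusted p under 0.05, against 4.4%. Separate ranges were found in 0 of the 41 with values in all mice, against 0.351%. The 49th tile had a value in 1 amphetamine-exposed mouse and could not be tested. Without squeezing of the variances, and on the logit scale, the count of member promoters, gene bodies, islands and tiles was also 0. The median difference over member tiles was -0.454 percentage points, beside 0 over all tiles, and of the 49 tiles, 23 had a higher and 26 a lower mean after amphetamine.

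**Figure D1:**
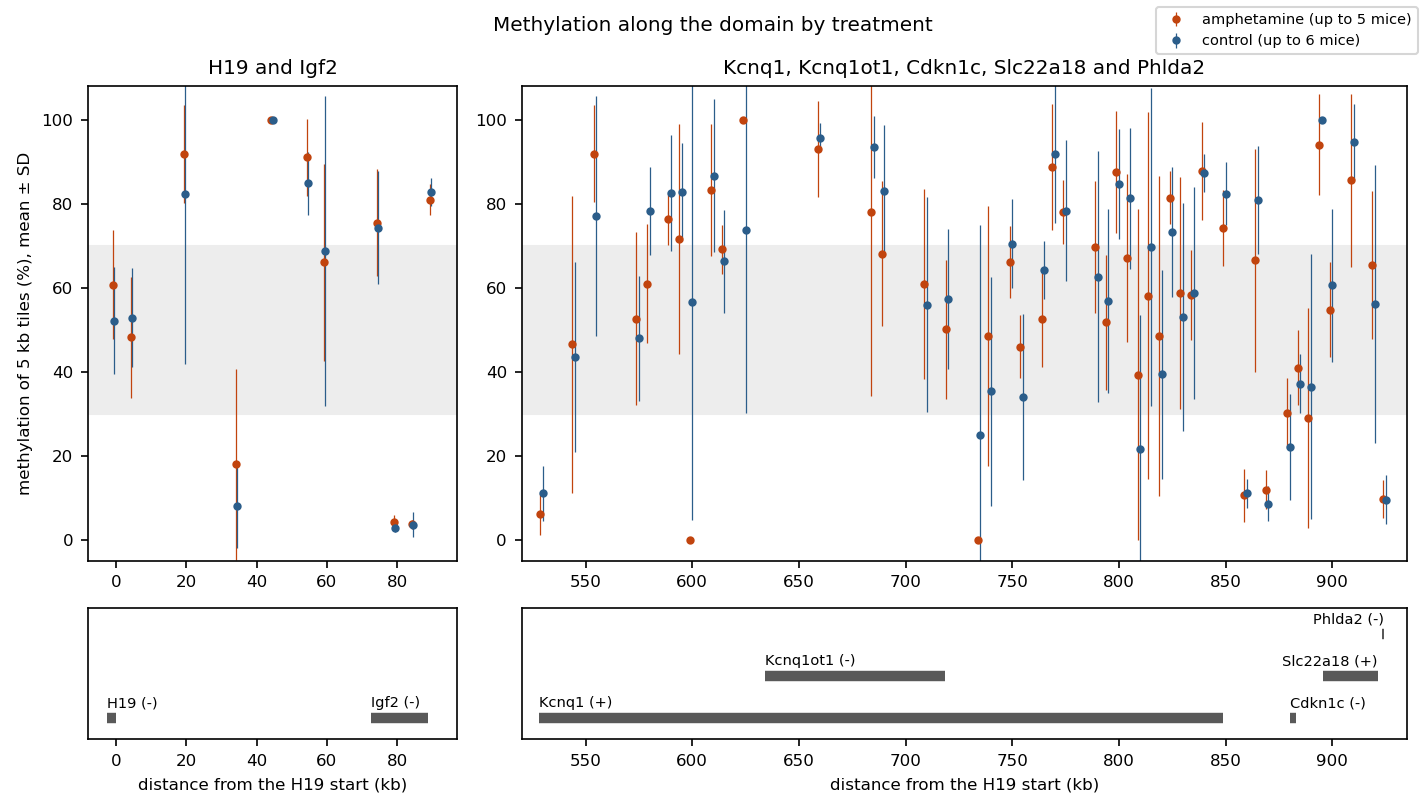
Methylation of 5 kb tiles (%, vertical axis) along the domain by distance from the H19 start (kb, horizontal axis), with points for the group mean and bars for the SD over mice in amphetamine-exposed (orange) and control (blue) mice; bars of the genes and their strands are drawn below. Tiles at H19 and upstream of it lie in the grey band from 30 to 70%, the inner tiles of Igf2 lie near 0, and the groups overlap in every member tile with values in all mice; tiles that overlap no member gene are drawn too, and the stretch with Ascl2 is not drawn.

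In controls, 19 of the 49 member tiles lay between 30 and 70%, or 38.8%, beside 17.5% of all tiles. Of these 19 tiles, 15 overlap Kcnq1, as do 35 of all 49. Among islands, 1 of 7 lay in this window, the Kcnq1ot1 island, beside 2.51% of all islands. For promoters the share was 40% beside 11.4%, and for gene bodies 50% beside 35.2%. Between 40 and 60% it was 20.4% beside 7.33% for tiles, but 12.5% beside 17.2% for gene bodies. The domain held unmethylated, intermediate and highly methylated regions side by side, with control means of member tiles from 2.82 to 100%. These shares are a description without a test.

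H19 was read at an intermediate level in all of its regions. The gene body (ENSMUSG00000000031, chromosome 7, 142575529 to 142578143, minus strand) was at 61.5% ± 13.0 (SD, n = 5) in amphetamine-exposed mice and 54.8% ± 12.6 (SD, n = 6) in controls. Single mice ran from 41.2 to 75.8% in amphetamine-exposed mice and from 41.1 to 76.5% in controls, so that the groups overlapped almost entirely. The difference was 6.71 percentage points (95% interval -9.57 to 23.0, adjusted p = 0.984). In the promoter, the means were 59.5% ± 17.9 (SD, n = 5) in amphetamine-exposed mice and 46.7% ± 18.9 (SD, n = 6) in controls. The highest promoter value, 89.0%, and the lowest, 22.5%, were those of an amphetamine-exposed and a control female. The promoter difference of 12.8 percentage points (95% interval -11.1 to 36.8, adjusted p = 0.958) was within the spread of the mice, and coverage there was 184 against 104. The tile that holds H19 with its promoter and Mir675, a microRNA made from the H19 transcript, was at 60.8% against 52.2%, a difference of 8.58 percentage points (95% interval -8.04 to 25.2, adjusted p = 0.965).

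The tile upstream of H19 with the CTCF cores shown above was at 48.2% ± 14.3 (SD, n = 5) in amphetamine-exposed mice and 52.9% ± 11.8 (SD, n = 6) in controls. Values ran from 24.2 to 58.0% and from 40.2 to 70.7%, and the lowest was that of an amphetamine-exposed female. The difference was -4.73 percentage points (95% interval -21.5 to 12.0, adjusted p = 0.973), opposite in sign to that at H19 itself. Of its 81 CpGs, 30 are within reach of a cut site, and the value is a mean over those read. Coverage was 100.2 and 97.5. Differences across this interval are compatible with these mice, so that a change of the control region was neither shown nor excluded.

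Igf2 (ENSMUSG00000048583, chromosome 7, 142650766 to 142666816, minus strand) had a low mean made of opposite parts. Its gene body was at 9.13% ± 1.04 (SD, n = 5) in amphetamine-exposed mice and 9.24% ± 2.51 (SD, n = 6) in controls, with single mice from 7.81 to 10.3% in amphetamine-exposed mice and from 6.55 to 12.9% in controls. The difference of -0.107 percentage points (95% interval -3.16 to 2.94, adjusted p = 1.0) has the narrowest interval of the 8 gene bodies. The larger island (142658949 to 142661318), which holds 3 annotated Igf2 transcript starts and part of the antisense gene Igf2os, was at 2.25% and 1.54%, and the smaller one (142663910 to 142664388), in an intron, at 3.65% and 5.38%. The inner tiles were likewise at 4.22 and 2.82%, and at 3.70 and 3.65%. By contrast, the tile at the far start (142665001 to 142670000), with the CpG-poor promoter shown above, was at 81.0% ± 3.77 (SD, n = 5) in amphetamine-exposed mice and 82.7% ± 3.40 (SD, n = 6) in controls. The promoter itself holds neither cut site, so that the value of the tile need not describe its 2 CpGs. The tile at the end of the gene (142650001 to 142655000), which holds the last coding part and Mir483, was at 75.5 and 74.3%. Differences between the groups in these 4 tiles ran from -1.76 to 1.40 percentage points, so that the pattern along Igf2 was far larger than any difference between the groups.

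**Figure D2:**
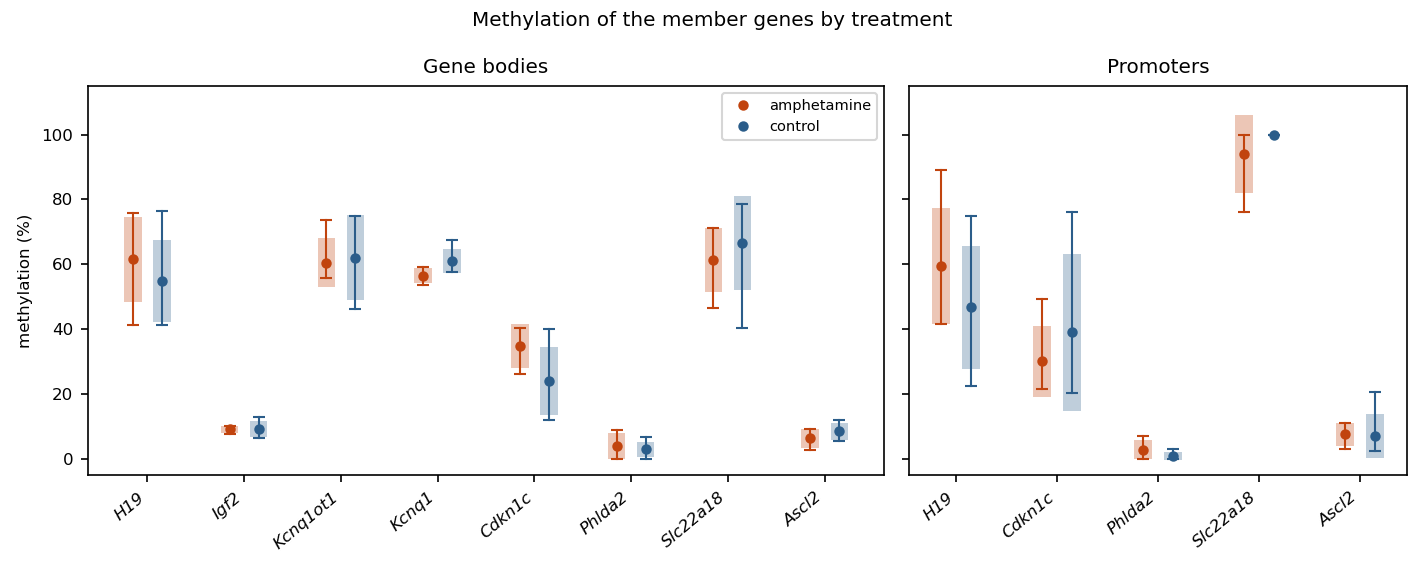
Methylation (%, vertical axis) of the 8 gene bodies and the 5 promoters in amphetamine-exposed (orange) and control (blue) mice, with points for the mean, shaded boxes for the mean ± SD (some pass 100%), and whiskers for the lowest and highest mouse. The whiskers of the groups overlap or meet for every gene, and Igf2, Phlda2 and Ascl2 lie under 13% in every gene body value.

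Kcnq1ot1 and its control region were intermediate, with the widest spread between mice among the islands of the domain. The Kcnq1ot1 island was at 48.7% ± 16.0 (SD, n = 5) in amphetamine-exposed mice and 53.7% ± 21.4 (SD, n = 6) in controls. Its values ran from 37.6 to 76.5% in amphetamine-exposed mice and from 26.4 to 77.7% in controls, and both extremes of all 11 mice were controls, the lowest a male and the highest a female. The difference of -4.92 percentage points (95% interval -29.6 to 19.8, adjusted p = 0.976) has a wide interval. Differences across it are compatible with these mice, so that a change was neither shown nor excluded. The spread is described against 233 islands at 30 to 70% with values in all mice, whose median SD was 12.9 in amphetamine-exposed mice and 16.1 in controls. Their coverage had a lower bound set from that of the Kcnq1ot1 island and no upper bound, and the set includes this island. The SD of the Kcnq1ot1 island lay at percentile 63.5 and 69.96 of these. The tile with the Kcnq1ot1 start (143295001 to 143300000) was at 50.1% ± 16.6 (SD, n = 5) in amphetamine-exposed mice and 57.3% ± 16.7 (SD, n = 6) in controls, a difference of -7.16 percentage points (95% interval -28.6 to 14.3, adjusted p = 0.968). Over the whole Kcnq1ot1 gene body (ENSMUSG00000101609, 143212155 to 143296549, minus strand) the means were 60.5% ± 7.50 (SD, n = 5) in amphetamine-exposed mice and 62.0% ± 13.1 (SD, n = 6) in controls, and the difference was -1.56 percentage points (95% interval -15.5 to 12.4, adjusted p = 0.998). Here too the controls held both the lowest mouse, at 46.1%, and the highest, at 74.9%.

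The islands outside the domain whose 4 group means came closest to those of the Kcnq1ot1 island were looked up among 12626 islands, by the largest absolute difference over the means of amphetamine-exposed, control, female and male mice. The Kcnq1ot1 island itself was at 48.7%, 53.7%, 57.3% and 44.4% in this order. The 5 nearest overlap Map1a, Gm10273, Gm10110, Plekhg4, and Nnat with its host Blcap, and differed by 3.54 to 5.36 percentage points at most. The closest, the Map1a island, was at 50.5%, 51.5%, 53.7% and 47.9%. The Nnat island, at another imprinted gene, was at 54.1%, 55.7%, 61.9% and 46.7%, and differed by 5.32 percentage points at most. Its SD of 31.8 in controls was the largest of the 5.

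Kcnq1, a potassium channel gene of 320681 bases that surrounds Kcnq1ot1, was the member with the smallest p for treatment. Its gene body (ENSMUSG00000009545, 143106362 to 143427042, plus strand) was at 56.5% ± 2.26 (SD, n = 5) in amphetamine-exposed mice and 61.0% ± 3.61 (SD, n = 6) in controls. Single mice ran from 53.6 to 59.2% in amphetamine-exposed mice and from 57.8 to 67.5% in controls, so that the upper end of the amphetamine group reached into the lower end of the controls. The difference of -4.56 percentage points (95% interval -8.81 to -0.304, adjusted p = 0.984) did not pass the adjusted threshold, although the interval for this gene alone does not include 0. Of its 35 tiles, 15 were higher and 20 lower after amphetamine, with a median difference of -2.73 percentage points, beside 0 over all tiles. Those tiles spread from 11.1 to 95.7% in controls. The island at the Kcnq1 start (143107029 to 143107765), which covers the first coding part, was nearly unmethylated, at 3.79% ± 2.31 (SD, n = 5) in amphetamine-exposed mice and 5.50% ± 3.83 (SD, n = 6) in controls.

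The 5 tiles with the smallest p for treatment, picked by their values, all lay in Kcnq1 and were all lower after amphetamine. Kcnq1 is overlapped by 35 of the 49 member tiles. In the intronic tile from 143155001 to 143160000 the means were 61.0% ± 14.1 (SD, n = 5) in amphetamine-exposed mice and 78.3% ± 10.5 (SD, n = 6) in controls, with single mice from 39.5 to 78.1% in amphetamine-exposed mice and from 64.7 to 92.1% in controls. Its difference was -17.3 percentage points (95% interval -33.1 to -1.48, adjusted p = 0.965). It was the only one of the 48 member tiles tested with an unadjusted p under 0.05, against 4.4% of all tiles. The intronic tile from 143340001 was at 52.7% against 64.2%, on a coverage of 624 and 419.7. The tile with the last exon (143425001 to 143430000) was at 74.2% against 82.4%, the tile from 143265001, shared with Kcnq1ot1, at 68.1% against 83.1%, and the tile with the Kcnq1 start at 6.12% against 11.1%. Adjusted p-values of these 5 tiles were all 0.965 to the third decimal, and the groups overlapped in each.

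Cdkn1c (ENSMUSG00000037664, 143458350 to 143461050, minus strand) lay between the unmethylated and the intermediate genes. Its gene body was at 34.8% ± 6.65 (SD, n = 5) in amphetamine-exposed mice and 24.0% ± 10.5 (SD, n = 6) in controls. Values ran from 26.1 to 40.4% in amphetamine-exposed mice and from 12.1 to 40% in controls, so that the lowest amphetamine-exposed mouse lay above some controls and the highest control about level with the highest amphetamine-exposed mouse. The difference, 10.8 percentage points (95% interval -0.742 to 22.3, adjusted p = 0.984), was the largest of the 8 gene bodies and did not pass the threshold. The island that covers most of the gene and its starts (143459056 to 143461477, 275 CpGs) was at 31.8% ± 7.64 (SD, n = 5) in amphetamine-exposed mice and 22.7% ± 9.17 (SD, n = 6) in controls, a difference of 9.15 percentage points (95% interval -1.85 to 20.2, adjusted p = 0.923). The promoter means stood in the other order, at 30.1% ± 11.1 (SD, n = 5) in amphetamine-exposed mice and 39.0% ± 24.3 (SD, n = 6) in controls, with a difference of -8.91 percentage points (95% interval -34.2 to 16.4, adjusted p = 0.961). Promoter coverage was 69.0 and 80.2, against 494 and 367 over the gene body, and promoter values ran from 21.5 to 49.4% in amphetamine-exposed mice and from 20.5 to 76.1% in controls. The tiles between which the gene is divided had higher means after amphetamine, by 8.09 and 3.79 percentage points.

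Phlda2, which restrains growth of the placenta, was nearly unmethylated. Its gene body (ENSMUSG00000010760, 143501545 to 143502541, minus strand) was at 4.03% ± 3.93 (SD, n = 5) in amphetamine-exposed mice and 2.91% ± 2.43 (SD, n = 6) in controls, a difference of 1.12 percentage points (95% interval -3.26 to 5.49, adjusted p = 0.988). The promoter was at 2.85% ± 3.01 (SD, n = 5) in amphetamine-exposed mice and 0.801% ± 1.28 (SD, n = 6) in controls, with single mice from 0 to 7.14% in amphetamine-exposed mice and from 0 to 2.93% in controls, and the island at 3.57% and 2.39%. All 3 were slightly higher after amphetamine with overlapping groups. Slc22a18, a transporter gene of the domain without a CpG island among the rows, had the highest control mean of the gene bodies instead. Its gene body (ENSMUSG00000000154, 143473721 to 143499334, plus strand) was at 61.4% ± 9.84 (SD, n = 5) in amphetamine-exposed mice and 66.7% ± 14.5 (SD, n = 6) in controls, a difference of -5.23 percentage points (95% interval -21.3 to 10.8, adjusted p = 0.986). The Slc22a18 promoter had reads in 4 mice of each group, at a mean coverage of 20.4 and 6.83, and stood at 94.0% and 100%, with 76.0% as its lowest value. The tile there gave the same group values as this promoter.

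Ascl2, a transcription factor gene needed for the trophoblast of the placenta, lies between Igf2 and Kcnq1. Its gene body (ENSMUSG00000009248, 142966822 to 142969264, minus strand) was at 6.32% ± 2.94 (SD, n = 5) in amphetamine-exposed mice and 8.53% ± 2.64 (SD, n = 6) in controls, a difference of -2.21 percentage points (95% interval -6.11 to 1.70, adjusted p = 0.984). The promoter was at 7.59% ± 3.52 (SD, n = 5) in amphetamine-exposed mice and 7.07% ± 6.78 (SD, n = 6) in controls, a difference of 0.516 percentage points (95% interval -6.75 to 7.78, adjusted p = 1.0), and the control range of 2.47 to 20.7% enclosed every amphetamine-exposed mouse. The island, with 175 CpGs, was at 1.997% and 2.90%. In order of the control means, the gene bodies ran Phlda2, Ascl2, Igf2, Cdkn1c, H19, Kcnq1, Kcnq1ot1 and Slc22a18. The neighbours Ascl2 and Igf2 differed by less than the larger SD of the pair, as did each neighbouring pair among the last 4. Phlda2 and Ascl2, Igf2 and Cdkn1c, and Cdkn1c and H19 differed by more than the larger SD of the pair.

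**Figure D3:**
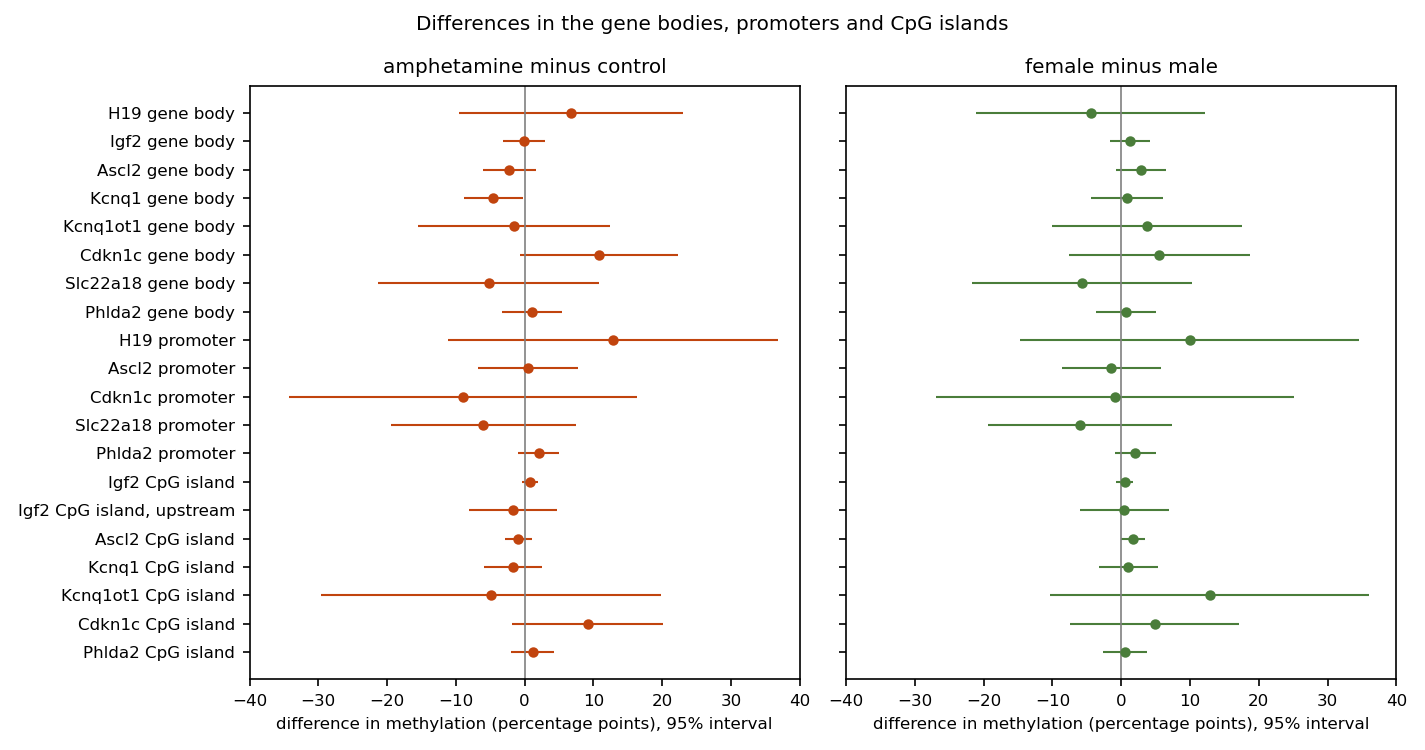
Differences in methylation (percentage points, horizontal axis) of the gene bodies, promoters and CpG islands (vertical axis), as amphetamine minus control on the left and female minus male on the right, with points for the difference and lines for its 95% interval. The widest intervals belong to the H19 and Cdkn1c promoters and the Kcnq1ot1 island; on the left the interval of the Kcnq1 gene body does not reach 0, and on the right that of the Ascl2 island.

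The second comparison asked whether the 6 females differed from the 5 males, over the same mice as the first. Of the 5 member promoters tested, 0 passed the adjusted threshold, against 0.564% of all promoters, and 0 had an unadjusted p under 0.05, against 6.07%. The ranges of the groups were apart in 0 of the 4 with values in all mice, against 1.55%. Of the 8 member gene bodies tested, 0 passed the adjusted threshold, against 0.373% of all gene bodies, and 0 had an unadjusted p under 0.05, against 6.5%. Group ranges were apart in 0 of the 8 with values in all mice, against 1.03%. Of the 7 member CpG islands tested, 0 passed the adjusted threshold, against 1.09% of all CpG islands, and 1 had an unadjusted p under 0.05, against 6.65%. Ranges without overlap were seen in 0 of the 7 with values in all mice, against 1.91%. Of the 49 member tiles tested, 0 passed the adjusted threshold, against 0.076% of all tiles, and 3 had an unadjusted p under 0.05, against 5.59%. Separate ranges were found in 1 of the 41 with values in all mice, against 0.626%. Without squeezing of the variances the count was 0 in each class, and on the logit scale it was 1, a tile in Kcnq1ot1 described next. Over the whole data, 590 regions of the 4 classes were called by sex, and 77 when autosomes were tested alone. The shares for sex given beside the members include the sex chromosomes, on which no member lies.

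All 7 islands had a higher mean in females, by 0.472 to 12.9 percentage points, with a median of 1.02 beside 0 over all islands. The largest of these differences was at the Kcnq1ot1 island, 57.3% ± 19.1 (SD, n = 6) in females and 44.4% ± 16.6 (SD, n = 5) in males, or 12.9 percentage points (95% interval -10.3 to 36.1, adjusted p = 0.870). The only one with an unadjusted p under 0.05 was at the Ascl2 island, 3.27% ± 1.33 (SD, n = 6) in females and 1.55% ± 1.16 (SD, n = 5) in males, or 1.72 percentage points (95% interval 0.0411 to 3.40, adjusted p = 0.739). Gene bodies were higher in females for 6 of 8 genes and lower for H19 and Slc22a18. H19 was at 55.9% ± 13.8 (SD, n = 6) in females and 60.3% ± 12.2 (SD, n = 5) in males, or -4.43 percentage points (95% interval -21.1 to 12.2, adjusted p = 0.953), and its promoter, with the means in the other order, at 57.1% and 47.1%. In the tile upstream of H19 the means were 46.1% ± 13.6 (SD, n = 6) in females and 56.3% ± 9.67 (SD, n = 5) in males, a difference of -10.2 percentage points (95% interval -25.7 to 5.30, adjusted p = 0.908). Kcnq1, which had the smallest p for treatment, was at 59.3% ± 5.23 (SD, n = 6) in females and 58.5% ± 0.967 (SD, n = 5) in males, and males there spread less than females.

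**Figure D4:**
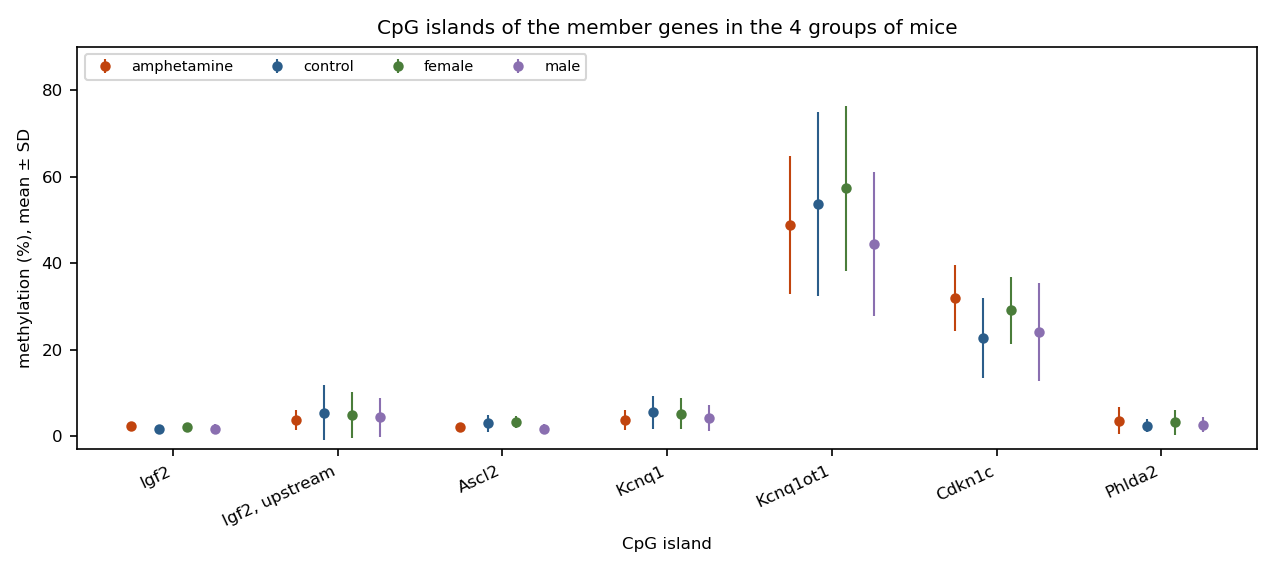
Mean methylation (%, vertical axis) with SD of the 7 CpG islands (horizontal axis) in amphetamine-exposed, control, female and male mice, the same 11 mice grouped in both ways. The Kcnq1ot1 island lies near the middle of the scale and the Cdkn1c island below it, while the other 5 stay under 6% in every group.

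Among member tiles, the 5 with the smallest p for sex, picked by their values, were spread over Kcnq1, Kcnq1ot1 and Cdkn1c and differed in both directions. The tile from 143120001, in a Kcnq1 intron, was at 28.3% ± 17.3 (SD, n = 6) in females and 64.8% ± 24.8 (SD, n = 5) in males, or -36.5 percentage points (95% interval -63.4 to -9.69, adjusted p = 0.782), on a coverage of 31.3 and 17.4. Another intronic Kcnq1 tile, from 143400001, was higher in females, at 84.0% ± 4.14 (SD, n = 6) in females and 68.5% ± 14.1 (SD, n = 5) in males, or 15.5 percentage points (95% interval 2.64 to 28.3, adjusted p = 0.844). The tile over the end of Cdkn1c (143455001 to 143460000) was at 31.9% ± 10.4 (SD, n = 6) in females and 18.4% ± 7.49 (SD, n = 5) in males, or 13.5 percentage points (95% interval 1.45 to 25.5, adjusted p = 0.870). The Kcnq1ot1 tile from 143260001 was the only member tile with separate ranges: all 6 females were at 100% and the males ran from 0 to 90.6%. Its mean coverage was 23.0 and 32.8, with 4 reads in the lowest female. The difference of 29.6 percentage points (95% interval -4.06 to 63.3, adjusted p = 0.908) passed only on the logit scale, at an adjusted p of 0.0468. That fit was rebuilt from group means and SDs, with an SD of 0 in females, so that 0.0468 rests on this approximation. The male mean of 70.4% (SD 39.5) includes the value of 0, that of an amphetamine-exposed male, and was not refitted without it. The remaining tile, from 143380001, was at 66.9% against 84.3%.

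Around the domain, 14 further genes were counted, among them Ins2, the insulin gene next to Igf2, and Mrpl23, on the far side of H19. For treatment, 8 of 12 promoters and 3 of 14 gene bodies were higher, with medians of 0.714 and -2.82 percentage points beside 0 and -0.0852 over all. In either class 0 passed the adjusted threshold, against 0.0164% of all promoters and 0.0116% of all gene bodies. For sex the counts were 7 of 12 and 9 of 14, and 0 passed, against 0.564% of all promoters and 0.373% of all gene bodies. The promoter of Tspan32, a tetraspanin gene between Ascl2 and Kcnq1, was at 93.0% against 53.6%, a difference of 39.4 percentage points (95% interval 14.0 to 64.8, adjusted p = 0.367) in females against males, on coverages of 37.7 and 50.2. Its gene body was at 54.3% against 34.5%, a difference of 19.8 percentage points (95% interval 4.20 to 35.3, adjusted p = 0.611). Tspan32, named for its values, was the only neighbour with an unadjusted p under 0.05 in either comparison. For sex this made 1 of 12 promoters and 1 of 14 gene bodies, against 6.07% of all promoters and 6.5% of all gene bodies.

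Igf2 signals through receptors and is held by binding proteins whose genes lie elsewhere in the genome. A list of 16 genes of the IGF axis held these, the related ligand Igf1, the adaptors Irs1 and Irs2, and the Igf2bp genes, whose proteins bind mRNA. For treatment, 7 of 15 promoters and 3 of 15 gene bodies were higher after amphetamine, with medians of -0.525 and -1.63 percentage points beside 0 and -0.0852 over all. Of either class 0 passed the adjusted threshold, against 0.0164% of all promoters and 0.0116% of all gene bodies. The promoter of Irs1, an adaptor of the insulin and IGF receptors, was at 4.64% against 8.90%, a difference of -4.26 percentage points (95% interval -8.01 to -0.513, adjusted p = 0.958), and the gene body of Igfbp4, an IGF binding protein, at 29.020% against 39.2%, a difference of -10.2 percentage points (95% interval -19.3 to -1.01, adjusted p = 0.984). These were the only ones with an unadjusted p under 0.05, or 1 of 15 in each class. Over all promoters the share was 4.11%, and over all gene bodies 4.38%. For sex, 4 of 15 promoters and 7 of 15 gene bodies were higher in females. Of these, 0 passed, against 0.564% of all promoters and 0.373% of all gene bodies. The promoter of Igf1r, the receptor through which Igf2 signals, was at 2.51% against 0.859%, a difference of 1.65 percentage points (95% interval 0.527 to 2.77, adjusted p = 0.422), with separate ranges of 1.90 to 3.14% and 0.1 to 1.53%. Both means are low, and ranges were apart by sex in 1.55% of all promoters. The gene body of Irs1 was at 28.3% against 20.8%, a difference of 7.56 percentage points (95% interval 0.0513 to 15.1, adjusted p = 0.767). This promoter and this gene body, named for their values, were each 1 of 15 with an unadjusted p under 0.05. Over all promoters the share was 6.07%, and over all gene bodies 6.5%. Of the kinase inhibitors related to Cdkn1c, the Cdkn1a and Cdkn1b gene bodies differed by 0.467 and 2.81 percentage points after amphetamine, with adjusted p-values of 0.996 and 0.984.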

How the data were processed

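DNA methylation of whole P0 pancreas was measured by RRBS in 11 mice, cut with MspI and TaqI and read as single ends of 50 bases. Per the submitters' processing notes and the study's methods, Bismark, run through NextFlow methylseq, aligned the reads to mm10, and RnBeads summarised them, and the notes also list limma and methylKit. The deposited methylation values are fractions, which the authors gave as group means over the mice with reads in a region, with the SD, lowest and highest mouse and number of mice without a value. The deposited coverage is the authors' signal of reads summed over a region, as a group mean with its lowest and highest mouse, and is not normalised. RRBS reads only CpGs near cut sites, so that a region's value stands for those, and bisulfite conversion does not separate 5-methylcytosine from 5-hydroxymethylcytosine. Further columns hold the authors' differences, quotients, p-values, adjusted p-values and ranks, and were not used.

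Groups were taken from the labels. The values of single mice were not used here, so the pooled variance was rebuilt from the group SDs and numbers of mice and squeezed with limma (version 3.58.1, R 4.3.3) over all regions of a class with values in at least 2 mice per group. Tests were two-sided, with Benjamini-Hochberg adjustment over the class and 95% intervals, and amphetamine against control and female against male were fitted separately, the factors to which the study's methods applied limma. No covariate was used here. Fractions were multiplied to percent. The scripts were tested on simulated data. The 8 genes, the lists of neighbours, IGF axis and CDK inhibitors, and the tests were chosen with earlier results of these data known. Named regions were all promoters, gene bodies and islands of the 8 genes, the tiles at the H19 control region and the Kcnq1ot1 start, the 5 other tiles with the smallest p in each comparison, and the 5 islands most like the Kcnq1ot1 island. Sequences were read from the mm10 genome (GRCm38) or RefSeq promoters (GRCm38.p6) with Python 3.11.15, and sequence counts are descriptions. Alternatives were no squeezing, the logit scale, a mean coverage of at least 10, values in all mice, autosomes alone, the study's 3 thresholds, unadjusted p-values, ranges that do not overlap, and a variance trend on coverage.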

Additional observations from a re-analysis of the deposited data

How the results depend on the processing

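Single mice were not analysed here, so leaving out each mouse and adding sex or treatment as a covariate were not run. No paired analysis was possible because the groups share no replicate numbers and only group summaries were used. For the member promoters, gene bodies and islands, 118 of 118 alternative fits for treatment and 119 of 119 for sex kept their side of the threshold, with lowest adjusted p-values of 0.555 and 0.419. Several of these fits are not separate checks. Those at a coverage of at least 10, with values in all mice or on autosomes kept each region's means and SDs and changed only the regions fitted beside it. Over all promoters, gene bodies, islands and tiles, 57 regions were called for treatment, against 6 without squeezing, 984 on the logit scale, 5 at a coverage of at least 10, 1 with values in all mice, 14133 at an unadjusted p and 943 by ranges that do not overlap. For sex the count was 590, against 391 without squeezing, 2610 on the logit scale, 77 on autosomes, 366 under the study's 3 thresholds, 18552 at an unadjusted p and 2122 by ranges. The causes of these changes were not tested. The member count of 0 moved for treatment to 1 gene body and 1 tile at an unadjusted p, and for sex, over tiles and islands, to 1 on the logit scale (the Kcnq1ot1 tile with all females at 100%), 4 at an unadjusted p and 1 by ranges. The variance trend on coverage, chosen after seeing the data, gave 49 and 623. Islands between 30 and 70% numbered 373, and 168 between 40 and 60%. Intervals of member promoters, gene bodies and islands had half-widths of 1.16 to 25.3 percentage points for treatment, which limits the changes that could be detected.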
